A study of Mus musculus with 6 samples.

Results

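The genes described here encode enzymes of the glutathione and thioredoxin systems, superoxide dismutases, catalase, heme oxygenases and the regulators Nfe2l2 and Keap1. Members were taken by symbol: the glutathione S-transferases of the alpha, mu, pi, theta, omega and kappa classes, the glutathione peroxidases (Gpx), peroxiredoxins (Prdx), thioredoxins (Txn) and thioredoxin reductases (Txnrd), and 14 single genes from Gclc to Keap1. Of 19926 genes measured by a probe set of their own, 50 were members. Their RNA was measured in primary astrocytes, the support cells of the brain, cultured from mice of the C57BL/6J strain. The TNF group received the pro-inflammatory cytokine tumour necrosis factor at 50 ng/mL and was collected after 24 h, and the control group was collected at the same time. Each group held 3 samples, numbered 1 to 3, and each sample was hybridised to 1 Affymetrix array. Nothing in the labels states whether the replicates came from different cultures or animals; the p-values therefore rest on a spread among samples that could be technical.

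Glutathione is a tripeptide thiol that astrocytes make in quantity and also export to supply neurons. Glutathione peroxidases and peroxiredoxins remove peroxides, glutathione S-transferases (GSTs) join glutathione to reactive compounds, and thioredoxin with its reductase restores oxidised protein thiols. The transcription factor NRF2, encoded by Nfe2l2, drives many of these genes from antioxidant response elements, and KEAP1 targets NRF2 for degradation. The mitochondrial superoxide dismutase Sod2 is a well-known target of NF-kB, the factor that TNF activates.

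Values are log2 signals, differences are TNF minus control on the log2 scale, and folds are taken from those differences. Probe levels are not compared between genes. Of the members, 39 had a mean signal at or above that of the median gene and 3 (Gpx5, Gpx6 and Gstt4) lay below the lower quartile of genes, where signals may be background. The signals of 12 of 13 astrocyte markers lay at or above the median gene in these cultures, and 6 of the 13 were lower with TNF (2 higher and 9 lower with the block). The median difference of the astrocyte markers was -0.76, similar in size to the falls of Gclm and Gstk1; their part in the members' falls was not tested. None of 19 microglia and macrophage markers passed the test without a block and 3 passed as higher with it. Their mean level in replicates 1, 2 and 3 was 7.06, 6.34 and 7.87 for the controls and 7.45, 6.44 and 7.96 for TNF, so it differed more between replicate numbers than between groups. Among markers of other cell types none was higher without the block, and those lower were Olig1 of 9 for oligodendrocytes, Map2 of 10 for neurons, Kdr and Ocln of 8 for endothelial cells, Acta2 of 14 for fibroblasts and mural cells, and Ccdc39 of 6 for ependymal cells. With the block 1 neuron marker was higher, and the lower ones were 3 of ependymal cells, 3 of fibroblasts and mural cells, 2 of endothelial cells, 2 of neurons and 1 of oligodendrocytes. In RNA from a whole culture, fewer cells of a type and less RNA per cell cannot be told apart.

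With TNF, 3 members rose and 4 fell at a limma adjusted p under 0.05. The superoxide dismutases Sod3 and Sod2 rose, as did Keap1, while the glutathione transferases Gstm7 and Gstk1, the glutathione synthesis subunit Gclm and catalase (Cat) fell. Of all genes tested, 3.87% rose and 3.33% fell, so both counts of members, out of 50, are small and stand somewhat above that background. The median difference was -0.06 over the members and -0.0033 over all genes. Samples with the same replicate number resembled each other, and a fit with that number as a block (the block, from here on) called 4 members higher and 13 lower. With the block 9.73% of all genes were higher, close to the 4 of 50 members, and 11.8% were lower, against 26.0% of members. All 7 calls made without the block were among these 17. The groups did not overlap for 8 members that were higher and 13 that were lower with TNF, against 12.3% and 11.7% of all genes.

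**Figure D1:**
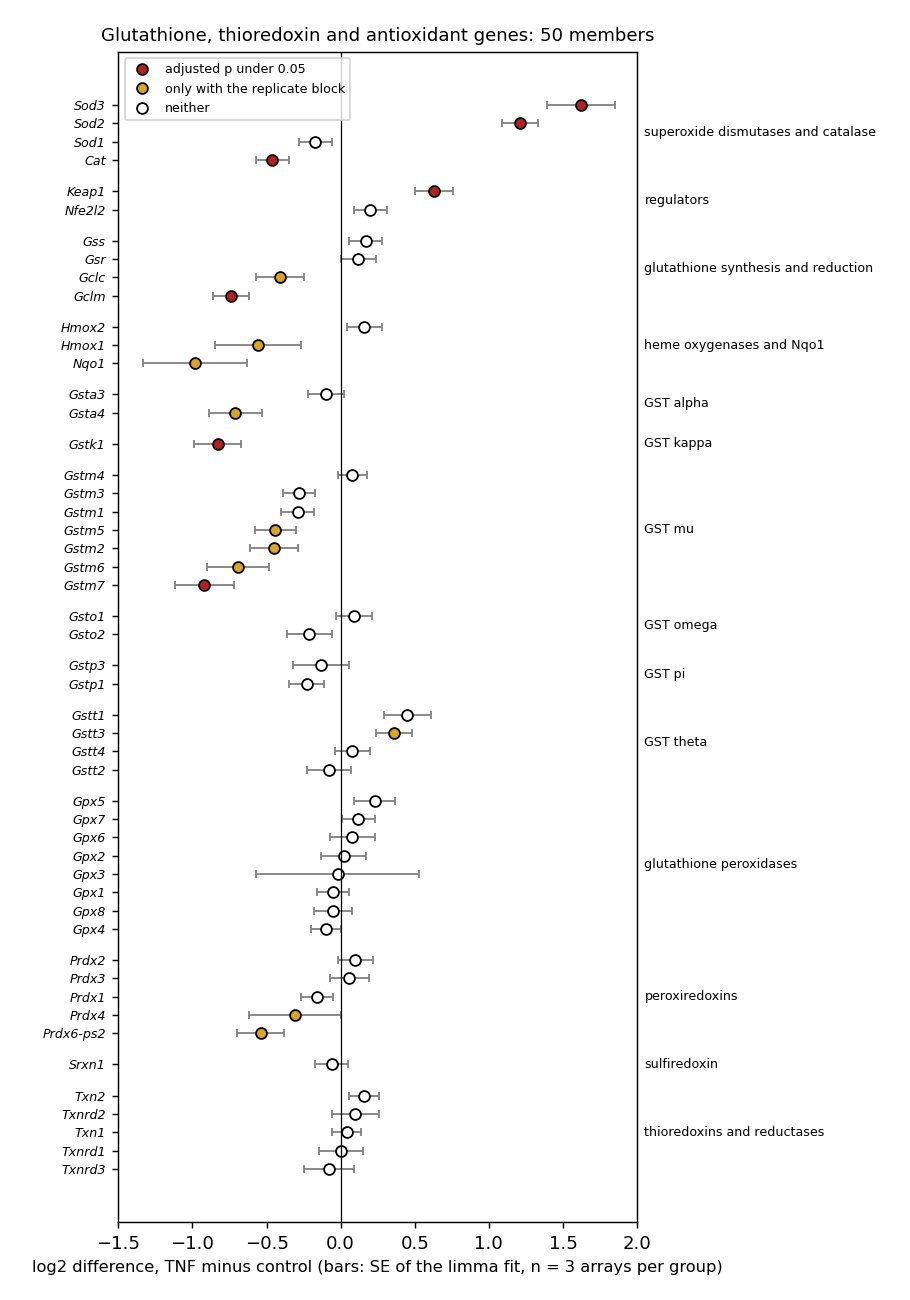
Log2 difference (TNF minus control) of each of the 50 members, grouped by role, with the SE of the limma fit (n = 3 arrays per group). Red points passed at an adjusted p under 0.05, yellow points passed only with the replicate number as a block, and white points passed in neither fit; Sod3 at 1.62 and Nqo1 at -0.98 are the extremes.

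Superoxide dismutases turn superoxide into hydrogen peroxide, and the 3 isoforms and catalase, which breaks hydrogen peroxide down, did not move alike. Sod2, the mitochondrial isoform, was 11.41, 11.32 and 11.08 in controls 1 to 3, against 12.54, 12.41 and 12.47 after TNF. All TNF samples lay above all controls, by 1.21 (SE 0.12, n = 3 per group, limma adjusted p = 0.00115), or 2.31-fold. Sod3, the isoform secreted to the extracellular matrix, was 7.45, 8.15 and 7.99 in the controls and 9.14, 9.50 and 9.81 with TNF. The groups were again separate, and the rise of 1.62 (SE 0.23, adjusted p = 0.00555) was 3.07-fold. Sod1, the cytosolic copper-zinc isoform, was 12.19, 12.34 and 12.23 against 12.11, 11.97 and 12.16. It lay slightly lower in each TNF sample than in any control, but the difference of -0.17 (95% interval -0.42 to 0.08, adjusted p = 0.51) did not pass, with or without the block.

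Catalase fell by 0.46 (SE 0.11, n = 3 per group, limma adjusted p = 0.0494), from 11.72, 11.67 and 11.52 to 11.27, 11.18 and 11.07. The groups did not overlap and the drop was 0.46, 0.49 and 0.45 for replicates 1, 2 and 3, nearly the same each time. The call stood close to the threshold: it was lost without any 1 of the 6 arrays (adjusted p from 0.0825 without control 3 to 0.178 without control 1), and with the block it was 0.00504. The call of Sod2 was kept without any 1 array and without any 1 replicate pair. That of Sod3 was kept without any 1 array and lost without pair 3 (adjusted p = 0.0602) or pair 2 (0.05).

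The stretch just upstream of the Sod2 start site is printed because Sod2 had the smallest p of the members. It covers chr17:13007639-13007838 (plus strand, RefSeq, GRCm38.p6), the 200 bases before the start, and the capitals mark GC boxes (GGGCGG), the motif bound by Sp1-type factors, and the kB consensus, the motif bound by NF-kB, both searched on both strands.
Sod2: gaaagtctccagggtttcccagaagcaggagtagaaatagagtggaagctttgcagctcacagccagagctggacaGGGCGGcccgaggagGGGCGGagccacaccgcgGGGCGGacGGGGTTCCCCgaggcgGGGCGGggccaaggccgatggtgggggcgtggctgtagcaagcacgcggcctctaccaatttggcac
It held 4 GC boxes and 1 kB match, which lies between the third and the last GC box. Whether NF-kB binds this match was not tested, and sequence farther from the start was not searched. At least 1 GC box was found in the 300-base promoters (250 bases before to 50 after the start) of 31 of the 43 members with an entry, and in those of 38.2% of all 27025 genes in the table. The kB consensus, whose spelling was chosen after the values were seen, was found for 6 of the 43 members and for 9.55% of all genes. The 6 were Sod2, Cat, Gpx1, Gpx3, Gstt4 and Prdx1. Which members match depends on the spelling: a narrower pattern (GGG, any 3 letters, TTCC) was found for Gpx1, Gpx3, Gstm6, Gstt4, Txn1 and Txnrd1, not for Sod2, and for 6.31% of all genes.

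Of the regulators, Keap1 rose and Nfe2l2 did not pass. Keap1 was 8.62, 8.49 and 8.34 in the controls and 9.18, 9.21 and 8.96 with TNF. The groups were separate, and Keap1 rose by 0.63 (SE 0.13, n = 3 per group, limma adjusted p = 0.0238), or 1.55-fold, made up of 0.56, 0.72 and 0.62 in the pairs 1 to 3. The call was kept without TNF 3 and lost without control 1 (adjusted p = 0.0519), TNF 1 (0.0816), control 2 (0.0761), TNF 2 (0.0981) or control 3 (0.0876). Nfe2l2 was 12.49, 12.41 and 12.57 in the controls against 12.66, 12.79 and 12.62 with TNF. Every TNF sample was above every control, yet the difference of 0.20 (95% interval -0.05 to 0.45, adjusted p = 0.41) did not pass, with or without the block. An array reads RNA, and NRF2 is controlled largely through its protein, which was not measured.

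**Figure D2:**
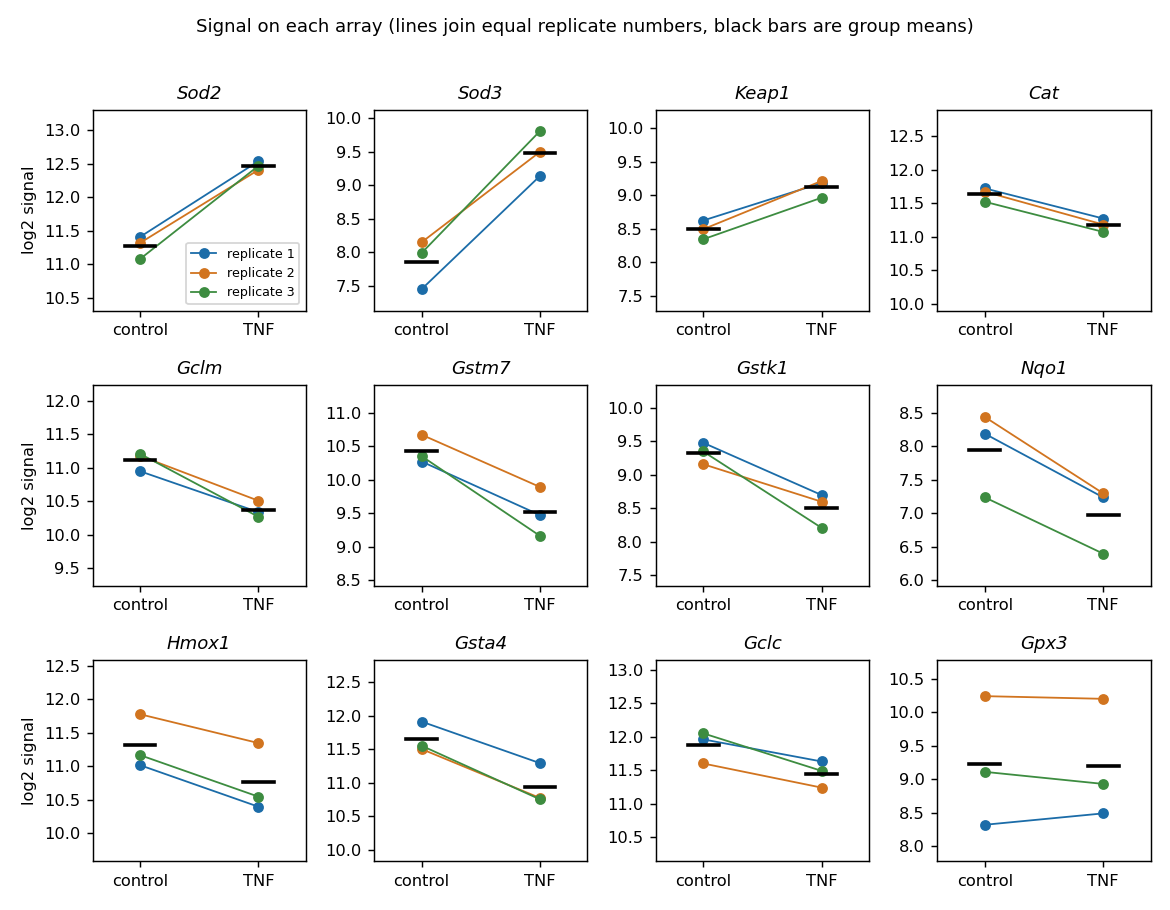
Log2 signal on each of the 6 arrays for 12 members; coloured lines join control and TNF samples of the same replicate number, black bars are group means, and every panel spans 3 log2 units. Sod2, Sod3 and Keap1 rise and the next 8 panels fall along every line, while Gpx3 differs between replicate numbers (8.32 to 10.24 in controls) and hardly between groups.

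Glutathione is made by glutamate-cysteine ligase, whose catalytic and modifier subunits are Gclc and Gclm, and then by glutathione synthetase (Gss), and glutathione reductase (Gsr) returns its oxidised form. Gclm fell with TNF, Gclc passed as lower only with the block, and Gss and Gsr did not pass. Gclm was 10.95, 11.18 and 11.21 in the controls and 10.34, 10.51 and 10.27 with TNF. It fell by 0.74 (SE 0.12, n = 3 per group, limma adjusted p = 0.0114), which was 1.67-fold lower, and the groups did not overlap. The call was kept without any 1 array, and lost without pair 3 (adjusted p = 0.0854), pair 1 (0.0928) or pair 2 (0.0991).

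Gclc was 11.96, 11.60 and 12.05 in the controls and 11.63, 11.24 and 11.49 with TNF. TNF 1, at 11.63, overlapped the lowest control, although each TNF sample lay below the control of its own number. The difference was -0.41 (SE 0.16, n = 3 per group), with a limma adjusted p of 0.209 without the block and a call as lower with it (0.0132). Gss was 8.86, 8.93 and 8.78 in the controls and 8.94, 9.15 and 8.99 with TNF, a difference of 0.17 (95% interval -0.09 to 0.43). Gsr was 9.46, 9.59 and 9.39 against 9.45, 9.71 and 9.64, a difference of 0.12 (95% interval -0.16 to 0.40). Neither Gss nor Gsr passed in either fit, and both intervals include 0.

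Promoters of members that fell and of members that did not pass were set side by side for the core of the antioxidant response element, spelled TGACNNNGC or TGAGNNNGC and searched on both strands. Each stretch below holds the match in capitals with 16 bases on either side, 5′ to 3′ on the gene's strand, from RefSeq (GRCm38.p6). The first 3 are from genes called lower with the block. The other 5 are from genes that passed in neither fit, out of 12 such genes with a match. Matches in the rest (Gsta3, Gstp3, Gstt1, Gstt4, Nfe2l2, Txn2 and Txnrd3) are not shown, so the 5 need not stand for all 12. Gstm5, Srxn1, Prdx1 and Gstp1 held further matches that are not shown.
Gclm: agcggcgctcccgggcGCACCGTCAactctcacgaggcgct
Gstm7: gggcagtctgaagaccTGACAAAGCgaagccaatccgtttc
Gstm5: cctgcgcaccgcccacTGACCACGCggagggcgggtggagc
Srxn1: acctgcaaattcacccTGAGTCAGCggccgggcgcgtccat
Prdx1: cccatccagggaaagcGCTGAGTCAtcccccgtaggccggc
Gstp1: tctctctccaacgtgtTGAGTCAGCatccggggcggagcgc
Txnrd1: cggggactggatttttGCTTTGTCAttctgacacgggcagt
Sod1: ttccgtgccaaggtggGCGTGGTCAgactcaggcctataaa
Their positions are chr3:122245407-122245447 (plus strand) for Gclm, chr3:107931719-107931759 (minus) for Gstm7, chr3:107895796-107895836 (plus) for Gstm5, and chr2:152105463-152105503 (plus) for Srxn1. Those of the rest are chr4:116685450-116685490 (plus) for Prdx1, chr19:4037962-4038002 (minus) for Gstp1, chr10:82859098-82859138 (plus) for Txnrd1 and chr16:90220690-90220730 (plus) for Sod1. In Srxn1, Prdx1 and Gstp1 the match shown also holds TGAGTCA, the AP-1 site, so these motifs overlap there. Either core was found for 15 of the 43 members with an entry, and for 30.8% of all 27025 genes in the table. It was found for 3 of 9 members called lower with the block, 0 of 3 called higher and 12 of 31 that did not pass. Gclc, Gsta4, Hmox1, Prdx6-ps2, Sod3, Gsr and Gstt2 had no entry.

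Nqo1, a quinone reductase, and Hmox1, the inducible heme oxygenase, are classical NRF2 target genes, and both were lower with TNF within each replicate number. Nqo1 was 8.19, 8.44 and 7.24 in the controls and 7.24, 7.30 and 6.40 with TNF. Replicate 3 was the lowest in both groups, and control 3 equalled TNF 1, so the groups overlapped. Without the block Nqo1, at -0.98 (SE 0.35, n = 3 per group), missed the threshold (limma adjusted p = 0.171). With it the SE was 0.09 and Nqo1 passed as lower (adjusted p = 3.69e-04), with drops of 0.95, 1.14 and 0.84 in pairs 1 to 3. Without control 3 the difference was -1.33 and passed without the block (adjusted p = 0.049), and without pair 3 it was -1.04 (0.0252). Leaving out any other 1 array, or pair 1 or pair 2, gave no pass (limma adjusted p from 0.207 without TNF 2 to 0.506 without pair 1). The difference was smallest, -0.69, without TNF 3.

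Hmox1 was 11.02, 11.78 and 11.17 in the controls and 10.40, 11.35 and 10.55 with TNF. Here replicate 2 was the highest in both groups, and TNF 2 exceeded controls 1 and 3. On average TNF samples differed by -0.56 (SE 0.29, n = 3 per group; limma adjusted p = 0.379 without the block and 0.00335 with it), and the pair differences were -0.62, -0.43 and -0.62. Hmox2, the constitutive isoform, was 10.49, 10.53 and 10.75 against 10.77, 10.68 and 10.81. Its difference of 0.16 (95% interval -0.11 to 0.43) did not pass in either fit.

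Of the 18 measured GSTs, 2 fell and none rose without the block, against 3.33% and 3.87% of all genes. With the block 6 were lower and 1 higher, against 11.8% and 9.73% of all genes. The mu class held most of the lower ones. Its genes are close paralogues that lie in 1 cluster on chromosome 3, and their probe sets may take up each other's RNA, which was not tested. Gstm7 was 10.27, 10.67 and 10.35 in the controls and 9.47, 9.89 and 9.16 with TNF. It fell by 0.92 (SE 0.20, n = 3 per group, limma adjusted p = 0.0334), which was 1.90-fold lower, with no overlap between groups. The call was kept without TNF 2 and lost without control 1 (adjusted p = 0.0766), TNF 1 (0.0974), control 2 (0.106), control 3 (0.0795) or TNF 3 (0.063).

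Gstm6, Gstm5 and Gstm2 passed as lower only with the block. Gstm6 was 7.02, 7.55 and 7.45 in the controls and 6.42, 7.06 and 6.46 with TNF (difference -0.69). TNF 2, at 7.06, reached past the lowest control. Gstm5 was 11.41, 10.94 and 11.18 against 10.75, 10.73 and 10.72 (difference -0.44), with controls far more spread than TNF samples. Gstm2 was 9.64, 9.74 and 9.63 against 8.89, 9.50 and 9.26 (difference -0.45), with TNF 1 the lowest. Their limma adjusted p-values were 0.109, 0.112 and 0.175 without the block and 0.00445, 0.0207 and 0.027 with it, for Gstm6, Gstm5 and Gstm2 in turn. Without TNF 2, Gstm6 differed by -0.90 and passed without the block (adjusted p = 0.0454). Leaving out any other 1 array gave no pass for Gstm6 (limma adjusted p from 0.0991 without control 1 to 0.29 without control 2). Gstm1 at -0.29 and Gstm3 at -0.28 were lower in 3 of 3 pairs and missed the threshold with the block (adjusted p = 0.0549 and 0.052). A dimmer probe set of Gstm3 differed by only -0.07. Gstm4 stood apart from its class at 0.08 (95% interval -0.15 to 0.31).

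Gstk1, the kappa-class transferase found in mitochondria and peroxisomes, was 9.48, 9.16 and 9.35 in the controls and 8.70, 8.60 and 8.21 with TNF. It fell by 0.83 (SE 0.16, n = 3 per group, limma adjusted p = 0.0205), which was 1.77-fold lower, and every TNF sample lay below every control. The drop was 0.77, 0.56 and 1.14 in pairs 1 to 3. The call was lost without control 1 (adjusted p = 0.0879), control 3 (0.0701) or TNF 2 (0.0548).

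Gsta4, an alpha-class enzyme that conjugates the lipid peroxidation product 4-hydroxynonenal, was 11.91, 11.50 and 11.55 in the controls and 11.29, 10.77 and 10.75 with TNF. The groups were separate and the difference was -0.71 (SE 0.18, n = 3 per group). The limma adjusted p was 0.0622 without the block and 9.56e-04 with it, and it was 0.0286 without TNF 1 (difference -0.89). Leaving out any other 1 array gave no pass (limma adjusted p from 0.101 without control 2 to 0.196 without control 1). Its relative Gsta3 differed by -0.10, short of the threshold in both fits.

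In the theta class Gstt3 passed as higher, only with the block. It was 9.74, 9.79 and 9.63 in the controls and 10.08, 10.21 and 9.93 with TNF. The groups did not overlap, and TNF samples were 0.36 higher (SE 0.12, n = 3 per group; limma adjusted p = 0.137 without the block and 0.0174 with it). Gstt1 was 11.12, 10.51 and 10.86 against 11.20, 11.32 and 11.32, also without overlap. Its difference of 0.45 came mostly from pairs 2 and 3 (0.08, 0.81 and 0.46 in order) and missed the threshold in both fits (adjusted p = 0.169, and 0.052 with the block). Gstt4 at 0.08, Gstt2 at -0.08, the pi-class genes Gstp1 at -0.23 and Gstp3 at -0.13, and the omega-class genes Gsto1 at 0.09 and Gsto2 at -0.21 missed the threshold in both fits.

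None of the 8 glutathione peroxidases passed in either fit, and their differences ran from -0.10 for Gpx4 to 0.23 for the dim Gpx5. So few genes cannot be set apart from the 7.20% of all genes called without the block and 21.5% with it. Gpx4, which reduces lipid peroxides in membranes, was 11.78, 11.76 and 11.80 in the controls and 11.67, 11.63 and 11.74 with TNF. It varied little within groups and each TNF sample lay below every control, but the 95% interval of its difference was -0.33 to 0.13. Gpx1, the main cytosolic enzyme, differed by -0.05 (95% interval -0.32 to 0.22). Gpx3, the secreted form, was 8.32, 10.24 and 9.11 in the controls and 8.49, 10.20 and 8.93 with TNF. Replicate 2 was the highest and replicate 1 the lowest in both groups, so that the range over replicate numbers, 1.81, was the widest of the 50 members, while the difference was -0.02. That sign is not determined: without control 2 the difference was 0.49, and without TNF 2 it was -0.51. The interval without the block, -1.30 to 1.27, therefore leaves Gpx3 poorly determined, and the SE was 0.55 without and 0.09 with the block.

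Among the 5 measured peroxiredoxins, none passed without the block and Prdx4 and Prdx6-ps2 were lower with it, against 11.8% of all genes. Prdx4, which works in the endoplasmic reticulum, was 8.97, 8.64 and 7.94 in the controls and 8.60, 8.33 and 7.69 with TNF. Replicate 3 was low in both groups and the groups overlapped, while the pair differences were -0.36, -0.30 and -0.26 (limma adjusted p = 0.756, and 0.0287 with the block). Prdx6-ps2 was 9.75, 9.53 and 10.07 against 9.11, 9.28 and 9.34 (difference -0.54, adjusted p = 0.0907, and 0.0122 with the block). It is annotated as a pseudogene of Prdx6, and its probe set may take up Prdx6 RNA, so which of them the signal stands for is uncertain. Prdx1 at -0.16, Prdx2 at 0.10 and the mitochondrial Prdx3 at 0.06 missed the threshold in both fits. Prdx1, Prdx2, Gpx4 and Gstm3 each had a second probe set, which differed by -0.19, 0.28, -0.11 and -0.07 and did not pass for any of them. The set kept was the brighter one, and which set stands for the gene's own RNA was not tested.

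The 5 thioredoxin and thioredoxin reductase genes and Srxn1 showed no call in either fit. So few genes cannot be set apart from the 7.20% of all genes called without the block and 21.5% with it. Txn1, the cytosolic thioredoxin, was 13.48, 13.45 and 13.42 in the controls and 13.44, 13.47 and 13.54 with TNF. The values interleaved, and the difference of 0.04 had a 95% interval of -0.19 to 0.27. Signals this bright on the array may be compressed. Txnrd1, its reductase and an NRF2 target, was 9.75, 10.12 and 9.72 against 9.80, 10.07 and 9.73. Replicate 2 was the highest in both groups and the difference of 0.0025 (95% interval -0.35 to 0.36) changed sign under several settings. Srxn1, the sulfiredoxin that repairs overoxidised peroxiredoxins and also an NRF2 target, was 9.86, 9.93 and 9.83 against 9.81, 9.94 and 9.69 (difference -0.06, 95% interval -0.32 to 0.20). The mitochondrial Txn2 at 0.16, Txnrd2 at 0.10 and Txnrd3 at -0.08 did not pass either.

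Across all 50 members, the range over the 3 replicate means had a median of 0.23, against 0.29 over all genes tested. It exceeded the TNF difference in 25 members, or 50.0%, against 71.7% of all genes. Among the 17 members called with the block it did so in 3, Nqo1, Hmox1 and Prdx4. The fit with the block calls genes on these same pair differences. This count and the agreement in sign of the called members therefore follow in part from the call. All 13 members lower with the block were lower in 3 of 3 pairs, by 1.24-fold to 1.97-fold on average, and 21 of the 50 members were lower in 3 of 3 pairs, a pattern seen in 26.9% of all genes. Another 13 members were higher in 3 of 3 pairs, as were 25.7% of all genes. The array that was lowest or highest was not the same from gene to gene: replicate 3 was low for Nqo1 and Prdx4, and replicate 2 was high for Hmox1 and Gpx3. The microglia markers were lowest in replicate 2 and highest in replicate 3 in both groups; their part in the members' spread over replicates was not tested.

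**Figure D3:**
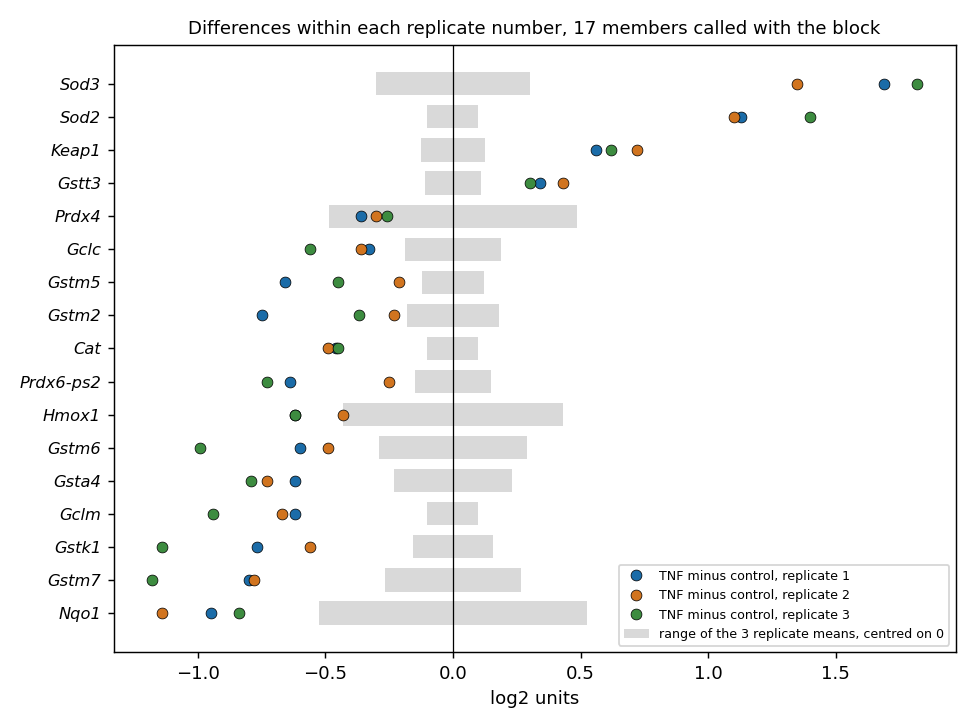
TNF minus control within each replicate number (points, log2 units) for the 17 members called with the block, with the range of the 3 replicate means drawn as a grey bar centred on 0. All 4 upper genes are above 0 and all 13 lower genes below 0 in each pair, which follows in part from the call on these same pairs. The grey bars of Nqo1 (1.05), Prdx4 (0.97) and Hmox1 (0.86) are longer than their mean differences.

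Other redox genes, 85 measured genes that feed, use or control these systems but are not members, were tested in the same fit. Of these 9 rose and 10 fell without the block, 22.4% together against 7.20% of all genes, and their median difference was -0.04. The list was written with earlier results of these data known. Ptges, a prostaglandin E synthase that needs glutathione, rose most, from 7.51, 7.61 and 7.67 to 9.98, 10.38 and 10.23, up by 2.60 (SE 0.13, n = 3 per group, limma adjusted p = 4.78e-05), or 6.06-fold. The groups were far apart. Bach1, a repressor that competes with NRF2 for antioxidant response elements, was 8.80, 8.68 and 8.84 in the controls and 9.86, 9.88 and 9.85 with TNF. This rise of 1.09 (SE 0.10, adjusted p = 7.87e-04) was made up of 1.06, 1.20 and 1.01 in the pairs 1 to 3.

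Akr1b8, an aldo-keto reductase, rose 2.48-fold. Nos2, the inducible nitric oxide synthase, rose by 1.31 from a low signal (5.96, 6.27 and 6.38 to 7.19, 7.33 and 8.03). Cybb, the catalytic subunit of the phagocyte NADPH oxidase, was 6.56, 5.86 and 7.53 in the controls and 8.37, 9.45 and 9.86 with TNF, up by 2.58 (SE 0.48, n = 3 per group, limma adjusted p = 0.0182). It is also a macrophage and microglia gene, and the mean level of the microglia markers was 6.34 to 7.87 in controls and 6.44 to 7.96 with TNF; their part in the rise was not tested. Nox4, another NADPH oxidase, fell by 0.68 from 8.17, 8.06 and 8.04 to 7.40, 7.61 and 7.23. The other 4 rises, named after their values were seen, were Xdh, Slc7a11, which imports cystine for glutathione synthesis, Ggt7 and Pgd.

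The metallothioneins Mt3 and Mt1, which bind zinc and copper and scavenge radicals, fell by 0.99 and 0.70. Mt3 was 13.03, 12.82 and 12.86 in the controls and 11.94, 12.11 and 11.71 with TNF (limma adjusted p = 0.00487), and the groups were separate. Mt1 was 13.27, 13.02 and 13.29 against 12.38, 12.57 and 12.52. The metallothionein Mt2, named after its values were seen, differed by -0.16 and passed in neither fit (limma adjusted p = 0.493, and 0.215 with the block). Its mean signal was 13.69 in the controls and 13.53 with TNF, and signals this bright may be compressed. Sesn1, a sestrin, fell by 0.61 and Mafk, a small MAF protein that pairs with NRF2 or BACH1 on DNA, by 0.57. The remaining falls, also named after their values were seen, were Aox1, Txnip, the inhibitor of thioredoxin, Cth, which makes cysteine, Sesn3 and Tkt. Without 1 array 4 to 8 of the 85 were higher and 2 to 5 lower. Of the 19 calls, only those of Ptges, Bach1, Akr1b8 and Mt3 were kept in each of those 6 fits. Cth, Sesn3 and Tkt lost theirs in all 6, Xdh, Slc7a11, Pgd, Aox1 and Txnip in 4, and Ggt7 in 3. Among the rest, Nos2 lost its call without control 1 (limma adjusted p = 0.0611) and Cybb without control 1 (0.0733) or TNF 2 (0.063). Sesn1 lost its call without control 1 (0.0537), and Mt1 without control 1 (0.0647), TNF 1 (0.0503) or control 3 (0.0547). Nox4 lost its call without TNF 1 (0.0636) or any 1 control (0.057 to 0.0856), and Mafk lost it without any 1 array other than TNF 3 (0.0573 to 0.0804). With the block 19 were higher and 17 lower, 42.4% together against 21.5% of all genes.

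**Figure D4:**
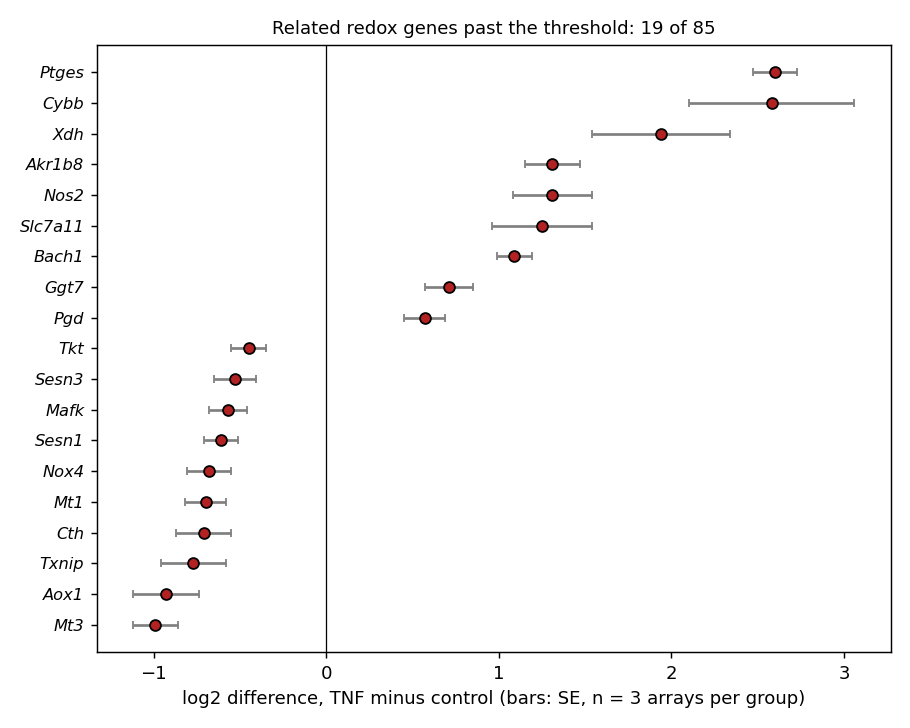
Log2 difference (TNF minus control, bars are the SE of the limma fit, n = 3 arrays per group) of the 19 of 85 related redox genes that passed at an adjusted p under 0.05. Ptges (2.60) and Cybb (2.58) are the largest rises and Mt3 (-0.99) the largest fall.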

How the data were processed

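Affymetrix Mouse Gene 1.0 ST arrays measured 3 control and 3 TNF samples. The authors' deposited values are on the log2 scale and cover 35544 probe sets; they run from 2.04 to 14.37 with array medians from 7.14 to 7.18; the submitters' processing notes name RMA and limma, without versions. RMA compresses large folds, and detection calls were not used here. The platform annotation gave 21777 probe sets exactly 1 symbol, and the probe set with the highest mean was kept for each of 19926 genes. Probe sets shared by several genes, as for Gsta1, Gsta2 and Gstp2, were not tested.

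Groups were compared two-sidedly with lmFit and eBayes from limma 3.58.1 (R 4.3.3), without a block, and p-values were adjusted by Benjamini-Hochberg over all 19926 genes. It had 4 residual and 3.70 prior degrees of freedom and was tested on simulated data. The simulated noise was independent between arrays, so the resemblance of samples with equal replicate numbers was not covered. Intervals are 95% intervals from the same fit. After subtracting group means, samples of equal replicate number correlated at 0.55, 0.65 and 0.75, so the numbers pair the samples by their values; the labels state no pairing. Blocking on that number left 2 residual degrees of freedom. Alternatives were another centring, normalization, variance model, filter, probe set or threshold, array weights, and arrays or pairs left out. Values on each array are given for members past the threshold in either fit for 14 preset genes, and for Gss, Hmox2, Gstt1, Gpx3 and Gpx4, chosen after their values were seen, as was the kB consensus; up to 5 related genes per direction were named by p. Members and lists were chosen with earlier results of these data known. Promoters came from RefSeq (GRCm38.p6) and 43 of 50 members matched. Python 3.11.15 with pandas 2.3.3 and matplotlib 3.10.9 prepared tables and plots.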

Additional observations from a re-analysis of the deposited data

How the results depend on the processing

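Of 28 members given on each array, 25 kept their sign under all alternatives run and Txn1, Txnrd1 and Gpx3, which lay near 0, did not: Txnrd1 was -0.0032 after quantile normalization again and ran from -0.10 to 0.13 with arrays or pairs left out, Txn1 from -0.01 to 0.07, and Gpx3 from -0.51 to 0.49, with 0.45 under array weights. With the replicate block 13 members were lower against 4 without it, and 19 related genes were higher and 17 lower against 9 and 10. The block changed no sign, since the pairs are balanced. At an adjusted p under 0.01, 0 members were lower (4 at 0.05; 13 at an unadjusted p under 0.05, also limma), and 3 related genes were higher and 1 lower. Among genes at or above the median signal, 5 related genes were higher, since Akr1b8, Nos2, Slc7a11 and Xdh lay below it and were left out. With 1 array or 1 replicate pair left out, which leaves fewer samples, 1 to 3 members were higher, 0 to 3 lower, and 2 to 8 related genes were higher and 0 to 5 lower. Leaving out pairs 1 and 2 was added after the data were seen. Cat narrowly missed the threshold with the probe set of highest variance or all probe sets tested (adjusted p = 0.052 in both). Gsta4 passed without the block among genes at or above the median signal, with trend and robust variance, and with array weights (adjusted p = 0.0302 to 0.0375). The number of arrays limits the precision.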

Other observations

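Probe sets shared by several genes were outside the test. The pair shared by Gstp1 and Gstp2 differed by -0.23 and -0.20 between group means, close to the -0.23 of Gstp1 on its own probe set. The 4 probe sets shared by Gsta1, Gsta2 and relatives lay between 4.59 and 6.42 on all arrays and differed by -0.11 to -0.02. These values carry no test.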
